A study of Homo sapiens with 6 samples.

Results

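The insulin-like growth factor binding proteins IGFBP1 to IGFBP7 were followed on 6 HGU133 Plus 2.0 microarrays of HT-29 cells, an established human colon adenocarcinoma line. Every probe set annotated to 1 of the 7 symbols was taken, which gave 16 of the 54675 probe sets on the array. The family was chosen by the increase of IGFBP1 already seen on these same arrays, so its 5-Aza to control values are given as a description and without p-values. According to the methods, not the sample labels, the 5-Aza cells (3 arrays) were kept with 10 µM 5-aza-2′-deoxycytidine (5-Aza), an inhibitor of DNA methyltransferases, for 72 hours in medium without serum. The control cells (3 arrays) received water and acetate, in which 5-Aza was dissolved, and no 5-Aza, and whether their medium also lacked serum is not given in the sources used here. Both groups are the same unmodified line. Separate cultures behind the 3 arrays are not stated, so all errors and p-values measure the spread between arrays, which may be technical.

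IGFBPs are secreted proteins that bind IGF1 and IGF2 with high affinity and so set how much of these hormones reaches the IGF1 receptor. IGFBP3 and IGFBP5 form a ternary complex with IGF and the acid-labile subunit IGFALS in blood, proteases such as PAPPA release IGF from IGFBP4 and IGFBP5, and IGFBP1 and IGFBP2 carry an RGD motif through which they bind integrins. IGFBP7 binds IGFs only weakly and is often classed as a related protein. In the liver, IGFBP1 transcription is repressed by insulin through FOXO factors.

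5-Aza inhibits the enzymes that methylate CpG sites, so the CpG content of the member promoters is shown, although methylation was not measured on these arrays. RefSeq promoters (GRCh38.p14) were matched for 5 of the 7 members, IGFBP2 to IGFBP6, and the 250 bases before the start site were read. The sequence CG, which reads the same on both strands, was counted. The promoter of IGFBP3 held 32 CG, a number reached by 9.52% of 35116 promoters of that length. That of IGFBP4 held 24 (reached by 23.7%), that of IGFBP6 9 (54.1%) and that of IGFBP5 8 (56.3%). IGFBP2 has 3 annotated starts, with 7, 22 and 4 CG (58.9%, 28% and 70.7%). The median over all promoters was 11, and 93.9% held at least 1. Of the sequences below, the promoter of IGFBP3 (chr7:45921273-45921522, minus strand) belongs to a member near background, and those of IGFBP4 (chr17:40443200-40443449, plus strand) and IGFBP6 (chr12:53097417-53097666, plus strand) to members with signal on every array. CG is in capitals.
IGFBP3: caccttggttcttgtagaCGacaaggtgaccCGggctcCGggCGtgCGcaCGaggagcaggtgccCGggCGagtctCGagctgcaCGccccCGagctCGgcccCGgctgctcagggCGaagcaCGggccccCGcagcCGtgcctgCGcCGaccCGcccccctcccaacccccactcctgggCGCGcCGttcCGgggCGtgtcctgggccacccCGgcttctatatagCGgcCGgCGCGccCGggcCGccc
IGFBP4: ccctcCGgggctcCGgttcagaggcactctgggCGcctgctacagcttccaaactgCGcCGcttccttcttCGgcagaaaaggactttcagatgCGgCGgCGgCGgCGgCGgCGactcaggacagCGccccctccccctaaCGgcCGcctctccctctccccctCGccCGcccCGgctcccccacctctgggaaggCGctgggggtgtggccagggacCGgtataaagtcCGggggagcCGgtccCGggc
IGFBP6: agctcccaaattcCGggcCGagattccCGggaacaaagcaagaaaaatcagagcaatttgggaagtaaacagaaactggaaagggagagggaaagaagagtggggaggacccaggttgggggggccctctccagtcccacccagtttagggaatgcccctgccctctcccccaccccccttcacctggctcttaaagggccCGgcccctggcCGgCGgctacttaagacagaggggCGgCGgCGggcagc

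Signals are linear values that the authors had scaled, with a mean of 500 on every array after the lowest and highest 2% were left out. The level of background was read from the probe sets of a bacterial transcript, TrpnX, whose highest signal lay between 22.6 and 31.8 on the 5-Aza arrays and between 23.8 and 42 on the control arrays. The median signal of all probe sets was 83.1 to 85.8 on the 5-Aza arrays and 71.5 to 76.7 on the control arrays. The log2 difference between the 3′ and 5′ probe sets of ACTB, a measure of RNA quality, was 0.64 to 0.80 on the 5-Aza arrays and 0.46 to 0.60 on the control arrays. Control replicate 2 stood apart on the first principal component (149.9, against -79 to 56.5 on the other arrays). Of 10 markers of colon epithelium, 8 were above TrpnX on all 6 arrays, while CDX1 was under it on every array and CDX2 on 5-Aza replicate 3. At an unadjusted p under 0.025 in limma 1 of the 10 was higher in 5-Aza-treated cells and 0 lower, beside 3.01% and 0.915% of all genes. It was CEACAM5, with 732.4, 850.7 and 925.9 on the 5-Aza arrays and 400.8, 411.2 and 469.4 on the control arrays. Log2 differences were taken after 1 was added to each signal. The median SD between replicates on this scale was 1.09 for the 13654 weakest probe sets and 0.14 for the 13654 strongest.

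Of the 16 IGFBP probe sets, those of IGFBP2, IGFBP4 and IGFBP6 (1 each) lay above the TrpnX level on all 6 arrays and 4 lay above it on no array. Every 5-Aza array lay above every control array for 2 probe sets (12.5%), 1 of IGFBP1 and 1 of IGFBP7, and below for 0. Over all 54614 probe sets left without control probe sets these shares were 9.29% and 5.22%, so the share of members is near the background and nothing is read from it. At an adjusted p under 0.05, limma called 0 of the 54614 probe sets (0%), and the looser unadjusted p under 0.05 was met by 2873 in the direction of 5-Aza and by 1078 in the direction of control. Of the 16 log2 differences 7 were positive and 9 negative, with a median of -0.094. The whole array had a median of 0.062, or -0.12 once each array was centred on its own median.

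**Figure D1:**
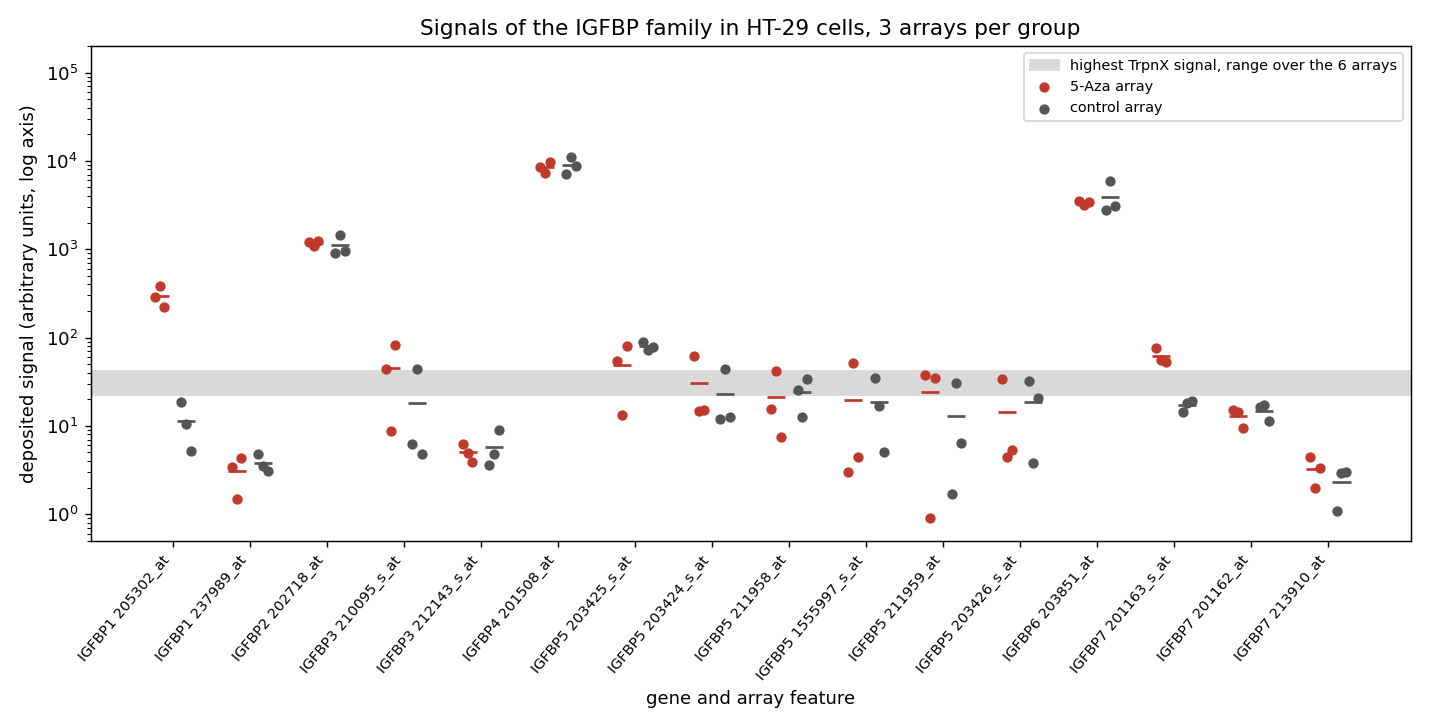
Signals (log axis) of the 16 IGFBP probe sets on single 5-Aza arrays (red) and control arrays (grey), with group means as bars (n = 3 each). The grey band spans the highest TrpnX signals, 22.6 to 42. Levels of different probe sets cannot be compared. The groups are apart for IGFBP1 205302_at and IGFBP7 201163_s_at alone.

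IGFBP1, the insulin-repressed member, had signals of 284.8, 387.8 and 219.6 on the 5-Aza arrays with probe set 205302_at, against 18.5, 10.6 and 5.2 on the control arrays. All 3 control signals lay under the TrpnX level of their own array and all 3 treated ones above it. The lowest 5-Aza signal was 11.9 times the highest control signal, a ratio that 4 probe sets on the array reached, IGFBP1 included. The means were 297 ± 84.8 in 5-Aza-treated cells and 11.4 ± 6.69 in control cells (SD, n = 3 each), a log2 difference of 4.70 (SE 0.48), which ranks 2 among all probe sets. As the control signals are at background, this size depends on the constant added, and it was 3.51 with 16 in place of 1. With each control signal raised to the TrpnX level of its array, IGFBP1 was at least 8.73-fold higher in 5-Aza-treated cells. The second probe set, 237989_at, had 3.4, 1.5 and 4.3 on the 5-Aza arrays and 4.8, 3.5 and 3.1 on the control arrays. It was under the TrpnX level throughout, so the increase rests on 1 probe set. In RNA of whole cultures, more signal in every cell and signal in a few cells cannot be told apart.

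Markers of hepatocytes, which are known for IGFBP1 secretion, were read beside it. Of 10, TTR, SERPINA1 and CPS1 were above TrpnX on all 6 arrays, while APOA1 was under it on every array. The summed signal of the list was 24867 to 28775 on the 5-Aza arrays and 22619 to 26551 on the control arrays, and these ranges overlapped. Most of this sum was SERPINA1, with 23320.9 to 27194.4 on the 5-Aza arrays and 21745.5 to 24915.3 on the control arrays, so it says little of the other markers. Albumin (ALB) had 30.9, 63.2 and 41.7 on the 5-Aza arrays and 24.4, 36.1 and 54.9 on the control arrays. FGA, a fibrinogen chain, moved with the groups, with 61.0, 86.8 and 51.5 on the 5-Aza arrays, all above TrpnX, and 3.5, 29.3 and 17.4 on the control arrays, all under it. FGB, from the same list, had 41.6, 40.5 and 3.0 on the 5-Aza arrays and 6.3, 35.2 and 30.4 on the control arrays, with overlap. Of the 10 markers, 8 had a positive log2 difference and 0 passed an unadjusted p under 0.025 in limma. The part of these markers in the signal of IGFBP1 was not tested.

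IGFBP7, the weak IGF binder, was the other member with separate groups. Its probe set 201163_s_at had 76.8, 55.0 and 53.2 on the 5-Aza arrays and 14.3, 18.2 and 18.9 on the control arrays. As for IGFBP1, every treated signal was above the TrpnX level of its array and every control signal under it. The means were 61.7 ± 13.1 in 5-Aza-treated cells and 17.1 ± 2.48 in control cells (SD, n = 3 each), a log2 difference of 1.78 (SE 0.22) that ranks 1222 among all probe sets. It was 1.22 with 16 added, and the signal was at least 1.86-fold higher against controls raised to the TrpnX level. The other probe sets of IGFBP7 did not share this difference. Probe set 201162_at had 15.3, 14.3 and 9.4 on the 5-Aza arrays and 16.3, 17.1 and 11.4 on the control arrays. Probe set 213910_at had 2.0 to 4.5 on the 5-Aza arrays and 1.1 to 3.0 on the control arrays. Both were under the TrpnX level on every array and their groups overlapped. Endothelial cells are a known source of IGFBP7. Of 8 endothelial markers PECAM1 and ESAM were above TrpnX on all arrays, CDH5 and EMCN were under it on all, and the summed signal was 787 to 1020 on the 5-Aza arrays and 685 to 1028 on the control arrays. Of the 8, 4 had a positive log2 difference, and the median was -0.0076. VWF alone among them passed an unadjusted p under 0.025 in limma. It had 24.5, 68.9 and 72.2 on the 5-Aza arrays and 11.2, 20.4 and 7.7 on the control arrays. VWF was above TrpnX on 2 of 3 5-Aza and 0 of 3 control arrays, and its log2 difference of 1.95 was 1.23 with 16 added. KDR went the other way (log2 difference -0.66), with overlapping groups. Fibroblasts also secrete IGFBP7. Of 10 fibroblast markers COL1A1, FAP and ACTA2 were above TrpnX on all arrays. The summed signal was 939 to 1131 on the 5-Aza arrays and 790 to 830 on the control arrays, without overlap. Most of this sum was COL1A1, FAP and ACTA2, and the groups overlapped for each marker of the list taken singly. Of the 10, 8 had a positive log2 difference, COL3A1 had -2.23 (SE 1.06), and 0 passed an unadjusted p under 0.025 in limma. The part of these markers in the signal of IGFBP7 was not tested.

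**Figure D2:**
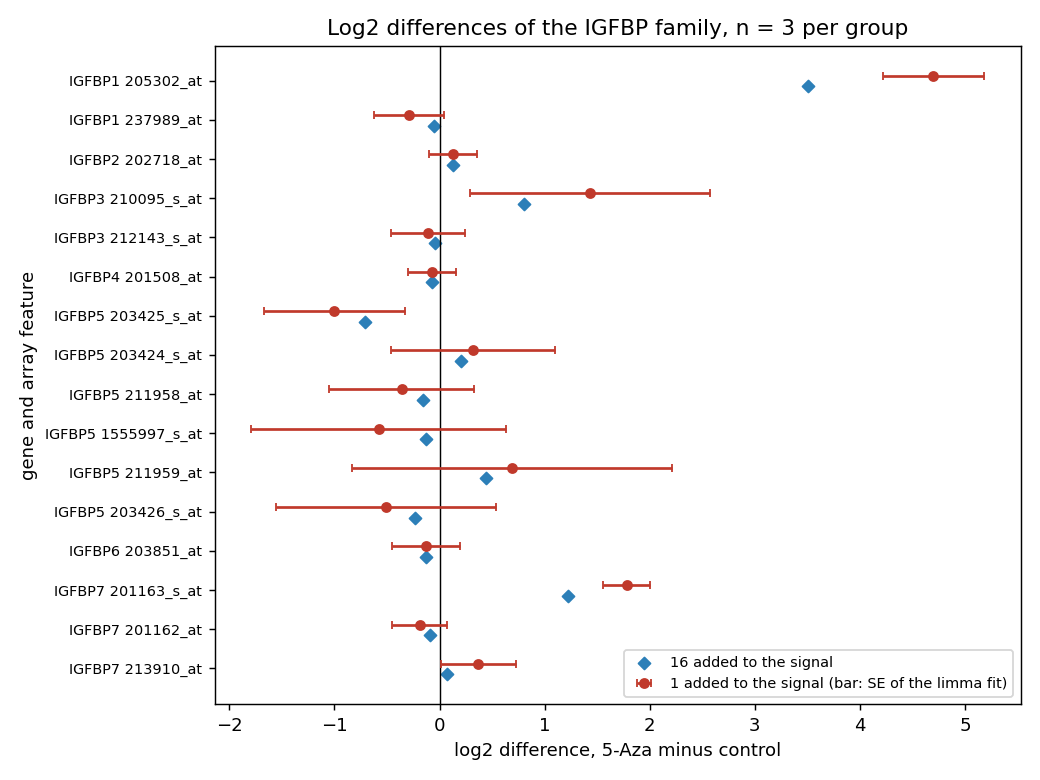
Log2 difference (5-Aza minus control, n = 3 each) of the 16 IGFBP probe sets with 1 added to the signal (red, bars are SE of the limma fit) and with 16 added (blue). IGFBP1 205302_at (4.70 and 3.51) and IGFBP7 201163_s_at (1.78 and 1.22) lie to the right of the rest, and the wide bars belong to the weak probe sets of IGFBP3 and IGFBP5.

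IGFBP4, IGFBP6 and IGFBP2 were the members above TrpnX on all 6 arrays, and their groups overlapped. IGFBP4, an inhibitor of IGF action for which RefSeq also lists the name HT29-IGFBP, had 8414.4, 7327.4 and 9670.2 on the 5-Aza arrays and 7057.2, 11165.2 and 8835.5 on the control arrays. Its log2 difference was -0.075 (SE 0.23). IGFBP6, which prefers IGF2 to IGF1, had 3492.4, 3190.3 and 3407.8 on the 5-Aza arrays and 2750.7, 5880.5 and 3073.2 on the control arrays (log2 difference -0.13, SE 0.32). For IGFBP2, a binder of IGF1 and IGF2 that also contacts integrins, the 5-Aza arrays had 1216.6, 1098.2 and 1232.6 and the control arrays 911.3, 1459.1 and 945.3. This is a log2 difference of 0.13 (SE 0.23), or -0.057 after median centring. In all 3 genes control replicate 2 held the highest signal of the 6 arrays.

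The signal of control replicate 2 was 2.02 times the mean of the other 2 controls for IGFBP6, 1.57 times for IGFBP2 and 1.41 times for IGFBP4. Among 22196 probe sets with at least 100 on every array, the median of this ratio was 0.982, and 0.378%, 2.3% and 5.27% reached the values of IGFBP6, IGFBP2 and IGFBP4. Without control replicate 2 the log2 differences were 0.21 (SE 0.15) for IGFBP6, 0.35 (SE 0.15) for IGFBP2 and 0.092 (SE 0.21) for IGFBP4. The direction of IGFBP6 thus turned with this array. That of IGFBP4 turned as well, but it also did so without 5-Aza replicate 2 (0.025). Without control replicate 2, every 5-Aza array lay above both remaining control arrays for 6 of the 16 probe sets. They were those of IGFBP2 and IGFBP6, 1 each of IGFBP3 and IGFBP5, and the separated probe sets of IGFBP1 and IGFBP7. With 3 arrays against 2, 15.9% of all probe sets did so.

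**Figure D3:**
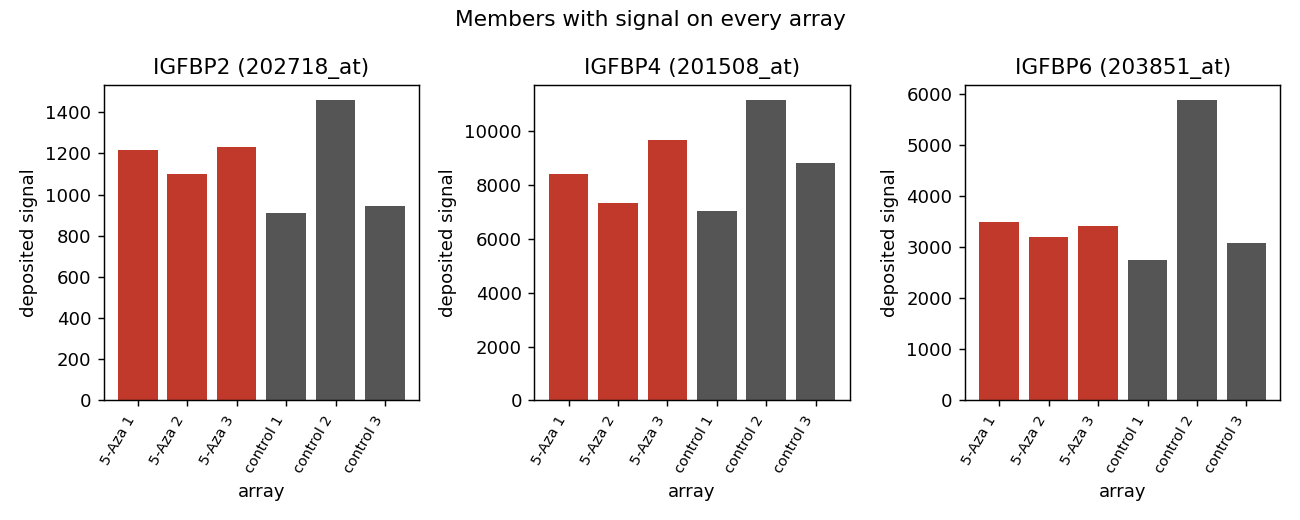
Signals (linear axis from 0) of IGFBP2, IGFBP4 and IGFBP6 on the 3 5-Aza arrays (red) and the 3 control arrays (grey), 1 bar per array. Control replicate 2 is the highest bar in each panel, at 1459.1, 11165.2 and 5880.5.

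IGFBP3, the main IGF carrier of blood, stayed near background on most arrays. Probe set 210095_s_at of IGFBP3 had 43.8, 8.8 and 82.9 on the 5-Aza arrays and 6.2, 44.1 and 4.8 on the control arrays. High and low signals occurred in both groups, and the log2 difference of 1.43 had an SE of 1.14. It was 2.36 without control replicate 2 and 0.76 at the lowest without any 1 array. The other probe set of IGFBP3, 212143_s_at, had 3.9 to 6.3 on the 5-Aza arrays and 3.6 to 9.0 on the control arrays. IGFBP1 and IGFBP3 are neighbours on chromosome 7 in the RefSeq annotation, with no protein-coding gene listed between them.

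IGFBP5 is a matrix-bound member. The strongest of its 6 probe sets, 203425_s_at, had 54.7, 13.3 and 80.1 on the 5-Aza arrays and 87.9, 71.4 and 79.0 on the control arrays. It was above TrpnX on 2 of 3 treated and on 3 of 3 control arrays. The log2 difference was -1.0 (SE 0.67), and -0.25 at the smallest size without any 1 array. With any 5-Aza signal under TrpnX raised to that level, the signal was 1.69-fold lower in 5-Aza-treated cells, and the deposited signals of the groups overlapped. After quantile normalization or median centring (log2 difference -1.20 or -1.18) every 5-Aza array was below every control array for this probe set. The other 5 probe sets of IGFBP5 had signals from 0.9 to 61.9 on the 5-Aza arrays and from 1.7 to 44.5 on the control arrays, and their groups overlapped. Their log2 differences ran from -0.58 to 0.69 with SEs of 0.69 to 1.52, so a difference within such bounds was not detectable here. IGFBP2 and IGFBP5 are neighbours on chromosome 2.

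The genes whose profile over the 6 arrays was most like that of IGFBP1 205302_at, among 12303 genes that reached a signal of 100, were ZNF770, GRID1, TCN1, ACTL6A and LACC1. Their likeness, Pearson's coefficient of the log2 signals, ran from 0.997 down to 0.987. It describes arrays that share their 2 groups and says nothing of the size of the difference. ZNF770, a zinc finger protein, had 3671.8, 3774.1 and 3562.0 on the 5-Aza arrays and 3088.7, 2989.9 and 2920.7 on the control arrays (log2 difference 0.29). GRID1, a glutamate receptor subunit, had 89.2, 121.1 and 66.5 on the 5-Aza arrays and 15.4, 7.2 and 3.6 on the control arrays (log2 difference 3.41). Its control signals were all under TrpnX, the difference was 2.13 with 16 added, and against controls raised to the TrpnX level it was at least 2.72-fold higher in 5-Aza-treated cells. The profile of IGFBP3 210095_s_at, with high signals on 5-Aza replicates 1 and 3 and control replicate 2, was most like those of PKD1L2, TAFAZZIN, ATP2A2, ANO1 and SH3GL1 (0.987 to 0.978), and the groups of all 5 overlapped. As this probe set was above TrpnX on 2 of 3 5-Aza and 1 of 3 control arrays, part of its profile is background. The same holds for the control side of IGFBP1.

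The other genes of the IGF system were read from 8 lists with 130 genes, of which 118 were measured. No list is a test of the family, and each is described by counts. Over the 118 genes, 6 with higher and 0 with lower signal in 5-Aza-treated cells met an unadjusted p under 0.025 in limma, a threshold taken from the methods, beside 3.01% higher and 0.915% lower among all 19777 genes. At an adjusted p under 0.05 the count was 0 (the unadjusted p was under 0.05 for 9 with higher and 1 with lower signal). After median centring 2 were higher and 2 lower, and after quantile normalization 4 and 1. The median log2 difference of the 118 genes was 0.025, where that of all genes was 0.038.

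Among 8 ligand and receptor genes, 0 passed in either direction. IGF1 had 57.9, 46.8 and 134.1 on the 5-Aza arrays and 88.9, 91.3 and 13.7 on the control arrays. The receptors were expressed in both groups with overlapping signals, and are named for their role, outside the naming rule. IGF1R, which transmits the IGF signal, had 4243.2 to 4672.7 on the 5-Aza arrays and 4093.4 to 5266.5 on the control arrays (log2 difference -0.039, SE 0.16). IGF2R, which takes up and clears IGF2, had 3764.7 to 4429.7 on the 5-Aza arrays and 2960.4 to 3862.6 on the control arrays (0.26, SE 0.18). The insulin receptor INSR had 412.1 to 483.6 on the 5-Aza arrays and 440.1 to 555.8 on the control arrays (-0.19, SE 0.17). IGFALS was near background, with 24.6 to 81.8 on the 5-Aza arrays and 56.7 to 82.0 on the control arrays (-0.52, SE 0.46).

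Of 13 measured cell-surface and matrix partners of IGFBPs, 3 were higher and 0 lower at the unadjusted threshold. Among all genes these shares were 3.01% and 0.915%. The list is small and its calls were not all stable, so nothing is read from this count. FN1, which encodes fibronectin, had 391.8, 394.1 and 482.4 on the 5-Aza arrays and 208.3, 113.7 and 214.0 on the control arrays (log2 difference 1.29, SE 0.30, adjusted p = 0.485, limma). ITGA5, which pairs with ITGB1 as the fibronectin receptor and as the receptor of IGFBP1, had 82.2, 151.2 and 46.5 on the 5-Aza arrays and 40.9, 21.7 and 21.7 on the control arrays (log2 difference 1.60, SE 0.51). It was above TrpnX on 1 of 3 control arrays, and the difference was 1.22 with 16 added. ITGB1 itself, named for that pairing, had 17897.0 to 18587.2 on the 5-Aza arrays and 14816.0 to 16978.9 on the control arrays, without overlap, but its log2 difference of 0.18 (SE 0.14) did not pass and was -0.0071 after median centring. ITGAV, another integrin alpha chain, had 7449.4, 6078.7 and 8007.6 on the 5-Aza arrays and 4838.0, 4532.8 and 4475.9 on the control arrays (log2 difference 0.63, SE 0.17). FN1 stayed past the unadjusted threshold without any 1 array, ITGA5 in 2 of 6 and ITGAV in 1 of 6 such fits, and the calls of ITGA5 and ITGAV were lost after median centring.

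In the list of proteases and their inhibitors 1 of 22 was higher and 0 lower. It was the collagenase MMP1, with 72.6, 70.9 and 67.1 on the 5-Aza arrays and 55.9, 35.1 and 33.6 on the control arrays (log2 difference 0.78, SE 0.24), whose call held in 1 of 6 fits without 1 array (0.65 to 1.01). The call was also lost after quantile normalization or median centring (0.59 in both) and with trend and robust variance. PAPPA, which cleaves IGFBP4, had 7.5 to 78.4 on the 5-Aza arrays and 20.7 to 78.7 on the control arrays. Of 10 other members of the IGFBP superfamily 1 was higher, CCN5 (WISP2 in older tables), a matricellular protein. It had 46.9, 72.8 and 33.7 on the 5-Aza arrays and 18.0, 12.4 and 9.7 on the control arrays (log2 difference 1.83, SE 0.37, adjusted p = 0.394, limma). All its control signals were under TrpnX, the difference was 1.16 with 16 added, and the call held without any 1 array.

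Downstream of the receptors, 1 of 24 genes of the signal relay was higher and 0 lower. This was RHEB, the GTPase that activates mTORC1, with 5704.8, 5557.1 and 5749.8 on the 5-Aza arrays and 4410.0, 3884.6 and 4012.8 on the control arrays (log2 difference 0.47, SE 0.14). Its call was lost in each of the 6 fits without 1 array, where the difference was 0.43 to 0.52, and after median centring, where it was 0.28. In the lists closest to IGFBP1 itself, 0 of 19 FOXO targets and insulin-repressed genes, 0 of 15 regulators of IGFBP1 transcription and 0 of 14 ATF4 targets passed in either direction. Their median log2 differences were -0.11, 0.056 and 0.08. By the rule for lists with no gene past the threshold, the largest differences among genes whose mean signal over all arrays exceeded the highest TrpnX signal are named. They were SOD2 (0.46, SE 0.15), which encodes a mitochondrial superoxide dismutase, BCL6 (-0.42, SE 0.21), a repressor, and, among ATF4 targets, ATF3 (-0.52, SE 0.30) and the cystine transporter SLC7A11 (0.52, SE 0.20). Among the regulators they were NR3C1, the glucocorticoid receptor (0.41, SE 1.03), and USF2 (0.26, SE 0.28). NR3C1 was above TrpnX on 2 of 3 5-Aza arrays and 1 of 3 control arrays, and its difference ran from -0.19 to 1.54 without 1 array.

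**Figure D4:**
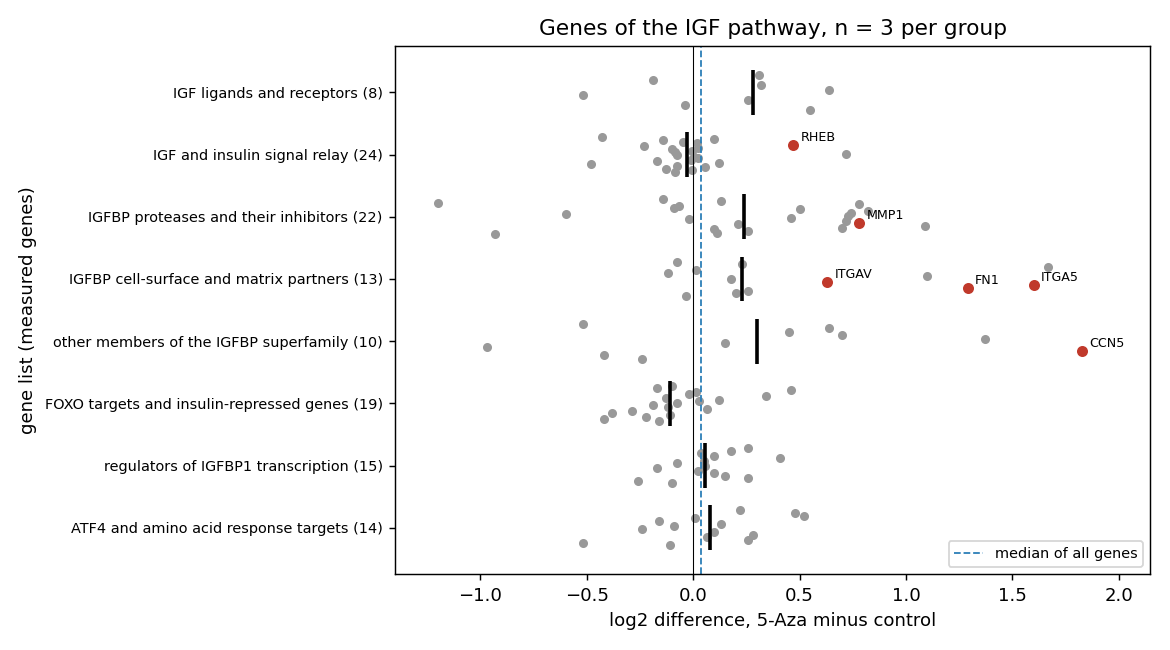
Log2 difference (5-Aza minus control, n = 3 each) of the measured genes of 8 IGF pathway lists, 1 point per gene, with list medians as black bars. Red points passed an unadjusted p under 0.025 in limma, the dashed line is the median of all genes (0.038), and all 6 red genes lie to the right of it. A gene can stand in more than 1 list.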

How the data were processed

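Gene expression of 3 5-Aza and 3 control samples was read from 6 HGU133 Plus 2.0 arrays. The deposited values are linear intensity values, 1 per probe set and array. The authors named the affy package, without a version, and SAM for the comparison. The labels and the methods name different RNA kits. Background correction and summarization are not given in the sources used here. No other normalization was applied. After 61 control probe sets were left out, log2(signal + 1) of 54614 probe sets was compared with limma 3.58.1 in R 4.3.3, with 1 coefficient for treatment, and Benjamini-Hochberg adjustment over all probe sets. The fit was tested on simulated data. Genes came from the platform annotation, with 1 probe set per gene for the lists (highest mean signal, 1 symbol). In that annotation 41097 probe sets have 1 symbol, 1801 several and 11777 none. Of each list, genes past an unadjusted p of 0.025 were named (up to 4), or else the 2 with the largest difference above background. So were the 5 most similar to IGFBP1 and to IGFBP3. Members and lists were chosen with earlier results of these data known. Arrays of both groups with the same number are not stated to be paired. Their number limits the precision.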

Additional observations from a re-analysis of the deposited data

How the results depend on the processing

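The log2 difference of IGFBP1 was 4.27 to 5.10 without 1 array, 4.57 after quantile normalization, 4.51 after median centring and 3.51 with 16 added to the signals. No value was available after a filter at the median signal, which removed both separated member probe sets (0 higher). The count of member probe sets above every control array was 2 to 6 without 1 array (4 without 5-Aza replicate 2, 6 without control replicate 2). The count below was 0 to 1, and 1 after quantile normalization or median centring. For 1 probe set each of IGFBP1, IGFBP2, IGFBP4, IGFBP6 and IGFBP7, 56 of 58 values under alternatives moved by less than the SD between replicates. The count includes settings that cannot move a difference, so it overstates how stable the values are. These are trend and robust variance, the replicate number as a block, and the filter at the median signal. IGFBP5 203425_s_at, above TrpnX on 3 of 3 control arrays, was left out of it. For member probe sets at background that SD is too wide for such a count to say much.

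Over all probe sets, an unadjusted p under 0.025 was met by 1621 with higher and 575 with lower signal in 5-Aza-treated cells, 926 and 1451 after median centring, 1090 and 909 after quantile normalization, and 1838 and 909 with trend and robust variance. Without 1 array the counts were 1258 to 1871 and 565 to 714. At an adjusted p under 0.05, 23 were called with trend and robust variance and 9 when weaker probe sets were left out at the median, and 0 to 0 without 1 array. For the pathway genes the 6 higher and 0 lower were 2 and 2 after median centring, 4 and 1 after quantile normalization, 9 and 4 with trend and robust variance, and 6 and 1 above the median signal. Without 1 array they were 3 to 4 (3 without control replicate 3) and 0 to 2 (2 without control replicate 2). With the replicate number as a block 2 were higher and 0 lower. With equal groups the block leaves every difference as it was (IGFBP1 4.70) and alters only its error. Deviations of same-numbered arrays from their group means had correlations of -0.0117, 0.0021 and 0.00965. These were taken over all probe sets, weak ones with a wide spread included, so they cannot show whether the arrays are paired. For most settings the cause of the changed counts was not tested, while a fit without 1 array has fewer arrays and the median filter fewer probe sets. Signals near background limit IGFBP3, the weaker probe sets of IGFBP5 and the control side of IGFBP1 and IGFBP7.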

Other observations

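Probe sets with related names that are not members were at or near background on most arrays. IGFBPL1, an IGFBP-like gene, had 8.5, 3.9 and 57.6 on the 5-Aza arrays and 2.0, 10.1 and 20.6 on the control arrays. The antisense gene IGFBP7-AS1 had 0.8, 11.4 and 4.4 on the 5-Aza arrays and 8.5, 2.2 and 4.4 on the control arrays. Among protein-coding neighbours of the members in the annotation, SOAT2 beside IGFBP6 had 23.1, 20.7 and 40.4 on the 5-Aza arrays and 8.5, 3.8 and 5.1 on the control arrays (log2 difference 2.09, SE 0.37, or 0.99 with 16 added). This cholesterol acyltransferase was above the TrpnX level on 1 of 3 5-Aza arrays and on 0 of 3 control arrays, so no lower bound for its fold is given. TOP2A, a topoisomerase beside IGFBP4, had 7931.4, 8371.4 and 9046.2 on the 5-Aza arrays and 6647.4, 7362.7 and 5090.7 on the control arrays (log2 difference 0.42, SE 0.19, groups without overlap). Both were picked from the neighbours after their values were seen.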
